A study of Mus musculus with 110 samples.

Results

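Ighv5-2, known in the literature as VH81X, is a variable segment of the mouse immunoglobulin heavy chain locus (Igh) on chromosome 12. Its junctions were all reads of the full libraries that joined within 100 bp of position 114836377 on the assembly of the deposited files, a hybrid of mm9 with a separately sequenced Igh region. This gave 82863 of 3602400 junction reads, or 2.30% of all reads and 26.6% of the 312039 reads in the VH region (114829805 to 117639092), from 98 libraries that made up 56 replicates in 13 groups. The window holds 1 of the 136 VH segments found in the files. The assay, LAM-HTGTS V(D)J-seq, starts from a bait primer at JH4 on genomic DNA and reads outward into whatever was joined to JH4, so each read is a D-to-J join, a VH-to-DJ join or another junction of that bait.

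Heavy chain genes are assembled in developing pro-B cells by the RAG endonuclease, which first joins a D to a JH segment and then a VH to the DJ join. RAG cuts at recombination signals, each made of a heptamer, a spacer and a nonamer. RAG bound at the JH end is thought to scan chromatin that cohesin extrudes past it, and the DNA-binding protein CTCF can halt that movement. IGCR1 is an interval with CTCF sites between the D and VH segments, and Ighv5-2, among the VH segments nearest to D, is known for its high use in the early pro-B repertoire and has a CTCF motif next to its recombination signal.

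All cultured lines were v-Abl transformed pro-B cells that carried an Emu-Bcl2 transgene and lacked RAG2. RAG2 was supplied by nucleofection, and 3 uM STI-571, a kinase inhibitor that stops their cycling, was given for 4 days. The groups were the parental line, a line with the auxin receptor OsTIR1 knocked in (OsTIR1 only), a line with CTCF tagged by mAID-GFP and no OsTIR1 (CTCF tag only), a CTCF degron line, a Rad21 degron line (Rad21 is a cohesin subunit) and a Rad21 degron line with IGCR1 deleted. Each line was studied untreated (NT) and with 500 uM of the auxin indole-3-acetic acid (IAA), begun 6 h before, which in a degron line directs the tagged protein to degradation. The thirteenth group was primary bone marrow pro-B cells of wild type 129SV mice, sorted as B220+CD43+IgM- where the labels give a sort. There were 4 replicates in each line and state, except 6 for the CTCF degron, 3 for the Rad21 degron and 6 for bone marrow. The labels do not say how many clones or separate cultures the replicates stand for, so the p-values measure the spread between these samples. The treatment field of 4 libraries titled IAA does not mention it, and the titles were followed. The files hold DNA junctions only, so the loss of CTCF or Rad21, the IGCR1 deletion and the surface phenotype could not be checked in them.

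Replicates held 14866 to 231023 junctions in the parental, OsTIR1 only and CTCF tag only groups, 21416 to 58885 in the CTCF degron, 25046 to 46510 in the untreated Rad21 degron and 30090 to 89909 in bone marrow. The Rad21 degron with IGCR1 deleted held 5329 to 15327 untreated and 1608 to 2668 with IAA, and the IGCR1-intact Rad21 degron with IAA held 1263 to 2492. Amplified reads carry no molecular identifiers, so intervals and floors below cover counting error only. Of the Ighv5-2 reads, 32.6% were distinct in bone marrow, against 65.3% to 95.1% in the line groups.

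Positions written with chr12, and those of the exons, are on mm9, and all others are on the hybrid assembly. In the mm9 reference the gene lies at chr12:114816715-114817201 on the minus strand. It is an IG_V_gene of 487 bases with a leader exon of 46 bases (114817156 to 114817201) and a second exon of 304 bases (114816715 to 114817018). The end of the second exon and the bases that follow it are shown here, because this is where RAG cuts and where the CTCF motif lies. They are compared with 3 neighbours named in mm9, and are read 5′ to 3′ on the coding strand. Capitals mark in turn the heptamer, the nonamer and a match to the CTCF core searched (CCANNAG followed directly by NNGGC), and the letters before the heptamer are the last 20 bases of the segment.
Ighv5-2, chr12:114816645-114816734, minus strand: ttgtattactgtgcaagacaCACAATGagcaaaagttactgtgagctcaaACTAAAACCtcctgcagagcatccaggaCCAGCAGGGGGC
Ighv2-2, chr12:114826406-114826497, minus strand: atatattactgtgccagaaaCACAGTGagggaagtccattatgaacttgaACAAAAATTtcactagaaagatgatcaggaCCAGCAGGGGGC
Ighv5-4, chr12:114835587-114835676, minus strand: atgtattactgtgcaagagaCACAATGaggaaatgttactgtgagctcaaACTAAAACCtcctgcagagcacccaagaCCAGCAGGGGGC
Ighv5-6, chr12:114863647-114863736, minus strand: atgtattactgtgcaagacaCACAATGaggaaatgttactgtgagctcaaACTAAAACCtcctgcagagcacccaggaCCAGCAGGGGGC

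The Ighv5-2 heptamer matched the consensus at 6 of 7 bases and its nonamer at 8 of 9, with a spacer of 23 bases. The heptamer CACAATG was found at 10 of the 110 VH segments on this strand (9.09%), whereas CACAGTG was found at 78 (70.9%). The CTCF core began 59 bases after the segment. Within 200 bases after the segment, on either strand, this core was found at 24 of the 110 segments (21.8%). These were 17 of the 20 segments nearest to D and 7 of the other 90. A match describes these letters only.

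The share of all junctions taken by Ighv5-2 varied over a wide range between groups. It was 39.97% ± 1.97 (SD, n = 4) in untreated Rad21 degron cells with IGCR1 deleted and 4.58% ± 0.605 (n = 4) in the same line with IAA. Bone marrow followed at 3.45% ± 0.412 (n = 6). The OsTIR1 only line had 2.76% ± 0.869 untreated and 2.05% ± 0.126 with IAA, and the parental line 2.26% ± 0.346 and 2.28% ± 0.516 (n = 4 each). Lower shares were seen in the CTCF tag only line, at 1.03% ± 0.335 untreated and 0.876% ± 0.335 with IAA (n = 4 each). The untreated Rad21 degron had 0.842% ± 0.039 (n = 3), the CTCF degron 0.635% ± 0.403 untreated and 0.525% ± 0.145 with IAA (n = 6 each), and Rad21 degron cells with IAA had no junction in 2 of 3 replicates. In that order the highest group stood clear of all others, while each of the next groups overlapped its neighbour down to the OsTIR1 only line with IAA. All CTCF tag only, CTCF degron and IGCR1-intact Rad21 degron replicates lay below all parental and OsTIR1 only replicates.

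**Figure D1:**
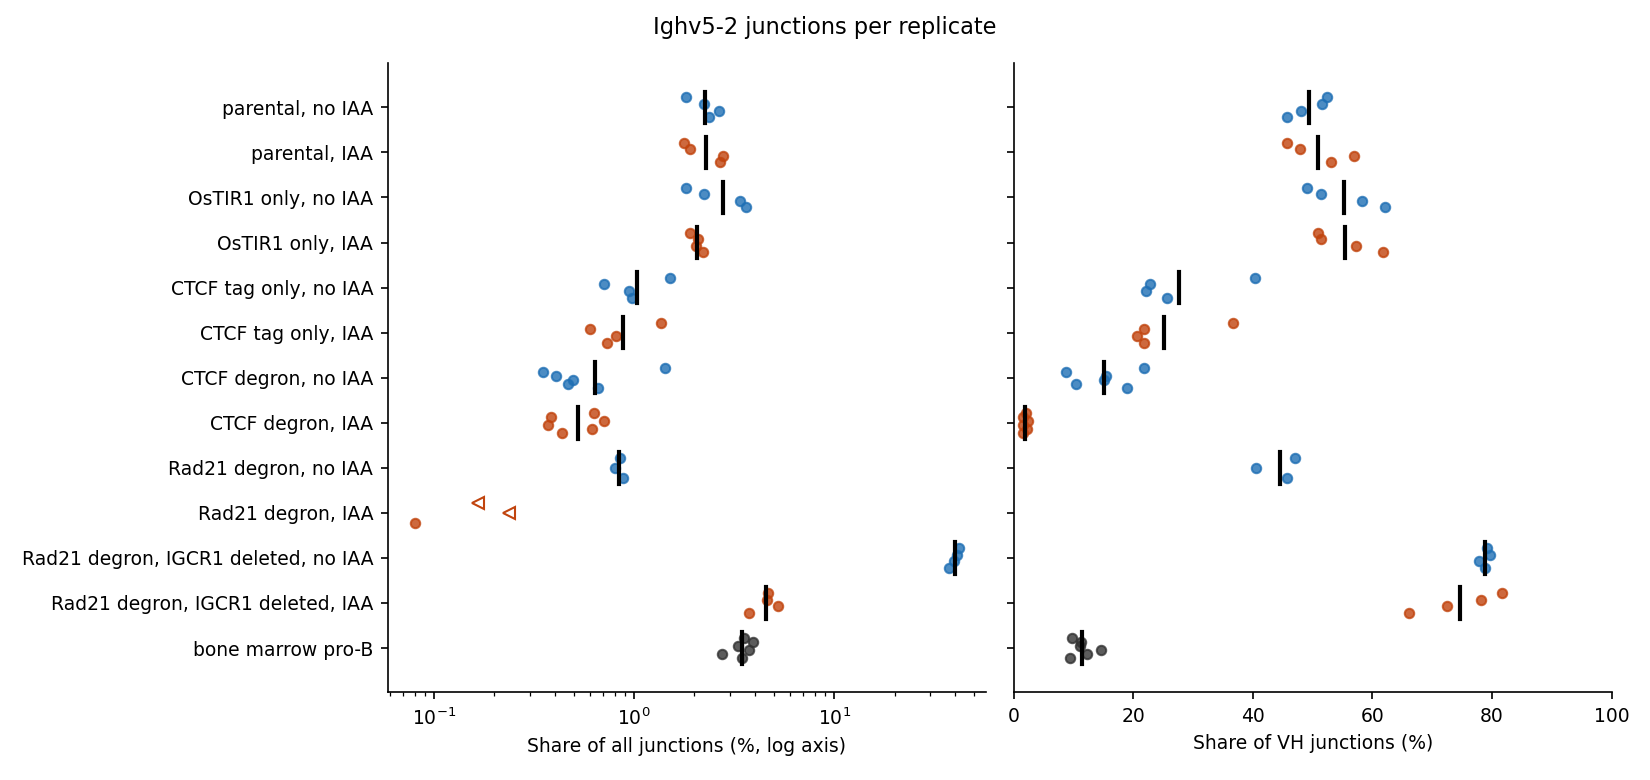
Ighv5-2 junctions as a percentage of all junctions (left, log axis) and of VH junctions (right, linear axis). Each point is a replicate (blue untreated, orange IAA, dark grey bone marrow) and black bars are group means. Open triangles are the 2 replicates of the Rad21 degron with IAA that had no Ighv5-2 junction, drawn at the share that 3 junctions would give, and that group has no bar and no right-hand points because it had at most 4 VH junctions a replicate. The untreated cells without IGCR1 stand apart on the left, and the CTCF degron with IAA stands apart on the right.

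The share within VH junctions gave another order. Ighv5-2 took 78.9% ± 0.767 of VH junctions in untreated cells without IGCR1, 49.4% ± 3.09 in untreated parental cells, 44.5% ± 3.45 in the untreated Rad21 degron, 27.7% ± 8.53 in the untreated CTCF tag only line, 15.1% ± 4.93 in the untreated CTCF degron and 11.4% ± 1.88 in bone marrow. In the CTCF degron with IAA it took 1.89% ± 0.390. By mean share it ranked first among VH segments in 12 of the 13 groups. In the IGCR1-intact Rad21 degron with IAA that rank rests on 2 of 5 VH junctions, both in replicate 3. In the untreated CTCF degron it ranked 2 in replicates 2 and 5. In the CTCF degron with IAA it ranked between 9 and 14 by replicate, and Ighv2-3 came first with 17.6% of VH junctions.

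Depletion of Rad21 all but removed Ighv5-2 junctions where IGCR1 was intact. The untreated replicates had 397, 200 and 366 Ighv5-2 junctions, or 0.854%, 0.799% and 0.874% of all junctions. With IAA the counts were 0, 0 and 2. The third replicate's 2 junctions were 0.080% of its total. The counts of 0 allow shares of up to 0.166% and 0.238% with a limit of 3 counts, and up to 0.203% and 0.292% by the exact interval at 95%. The groups did not overlap. Pooled, 2 of 5566 junctions against 963 of 113444 gave a share 23.6-fold lower, with an exact counting interval at 95% of 6.52 to 195. In limma the change was −4.15 log2 units (SE 0.404, adjusted p = 5.08e-10), in a comparison where 61.1% of the 18 segments tested were called. This fitted value rests on 2 junctions and on the 0.5 that voom adds to each count, so the counting interval is the better guide to its size. The 6 other VH segments tested were called lower too. They had 1 junction between them with IAA, at Ighv2-3, against 820 untreated, so no size is given for their change. The exact two-sided permutation test on the shares gave p = 0.10, the smallest that 3 against 3 allows. With 5 VH junctions in all after IAA, the share within VH was not tested. Each IAA replicate was sequenced in the same run as the untreated replicate of its number, and the untreated share was the higher in each of the 3 runs.

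Deletion of IGCR1 went with a higher share of Ighv5-2 in both states of Rad21. The lines with and without the deletion shared no sequencing run. Of the libraries a and b that a replicate of the IGCR1-intact line had, the deletion line had b only. Deletion, line, run and library type therefore cannot be told apart in any comparison between these lines. In untreated cells the deletion line had 41.9%, 41.0%, 39.5% and 37.4% of all junctions at Ighv5-2, against at most 0.874% in the IGCR1-intact line, a 47.5-fold ratio of the means. The limma change was 5.55 log2 units (SE 0.099, adjusted p = 1.44e-11), and 84.2% of the 19 segments tested were called. Of the 6 other VH segments tested 4 rose, 1 fell and 1 was not called, and none had a log2 change above that of Ighv5-2. The segment at 114830805, 5.57 kb nearer to D and closest in sequence to Ighv5-6, had 2.43% ± 0.455, and the segment at 114846142, 9.77 kb farther from D and closest to Ighv2-2, had 6.53% ± 0.330. Ighv5-4, 18.98 kb away, had 1.13% ± 0.137, and Ighv5-6, at 47.04 kb, had 0.062% ± 0.019. From Ighv5-2 outward, each of these segments had a lower share than the one before it. Within VH the share of Ighv5-2 rose by 0.81 log2 units (SE 0.069, adjusted p = 3.50e-13; 71.4% of 7 called). Ighv5-2 had 35.5 ± 3.70 times as many junctions as Ighv5-4 in these cells (n = 4), compared with 7.23 ± 1.44 in the IGCR1-intact line (n = 3) and 6.85 ± 1.35 in untreated parental cells (n = 4).

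With IAA, the line without IGCR1 kept 125, 104, 84 and 72 Ighv5-2 junctions, which were 4.69%, 4.63%, 5.22% and 3.76% of all junctions. This was 8.73-fold below the untreated mean, and the groups did not overlap. The limma change was −3.13 log2 units (SE 0.121, adjusted p = 9.48e-10; 52.9% of 17 segments called). Within VH the share of Ighv5-2 was 74.6% ± 6.86 with IAA and 78.9% ± 0.767 untreated. That change of −0.07 log2 units (SE 0.096) did not pass the test (adjusted p = 0.812; 20% of 5 called). The other VH junctions fell by a factor of 6.83 as a share of all junctions. Compared with IGCR1-intact cells, also with IAA, the share was 127-fold higher by pooled counts (385 of 8434 against 2 of 5566; exact interval 34.9 to 1053), and the limma change was 6.58 log2 units (SE 0.467, adjusted p = 1.24e-19; 16.7% of 12 called). The IAA effect on the share of all junctions differed between the lines with and without IGCR1 by 1.0 log2 unit (SE 0.467), which did not pass (adjusted p = 0.0828). Without the third IAA replicate of the IGCR1-intact line, the only one with Ighv5-2 junctions, the fitted difference was 1.53 (adjusted p = 0.0159). That value is set by the added 0.5, since the other 2 replicates had 0 of 3074 junctions. Against the mean of their limits of 3 counts a replicate, the share there was at least 4.18-fold lower than untreated. The exact limits are higher and would give a lower bound. The 8.73-fold of the deletion line lies above the bound, so these counts do not show which line fell more.

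In the CTCF degron, IAA left the share of all junctions at Ighv5-2 near its untreated level while that of nearly all other VH segments rose. The untreated share ran from 0.351% through a median of 0.479% to 1.43%, and the IAA share from 0.371% through 0.527% to 0.709%, so the groups overlapped. The highest untreated value, of replicate 1, was the one outside the range of the rest, 0.351% to 0.662%. The change was −0.12 log2 units (SE 0.274) and did not pass in limma (adjusted p = 0.711). It passed on other scales, with −0.71 when identical junctions were counted once (adjusted p = 0.0158) and −2.53 on a median-of-ratios scale. Of the 69 segments tested 88.4% were called, 87% as higher. Of the 53 other VH segments tested, 52 rose, with a median over the 53 of 3.11 log2 units, and all 53 had a larger log2 change than Ighv5-2. The 1 that was not called was the next segment, at 114846142, with 0.380% ± 0.176 untreated and 0.375% ± 0.121 with IAA.

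The segments on either side of this pair did rise. The segment at 114830805, between Ighv5-2 and the D segments, went from 0.088% ± 0.025 to 0.584% ± 0.259 (2.67 log2 units, SE 0.298, adjusted p = 2.17e-12). Ighv5-4 went from 0.286% ± 0.211 to 1.79% ± 0.341 (2.88 log2 units). Ighv2-3 went from 0.400% ± 0.147 to 4.87% ± 0.869 (3.66 log2 units), and Ighv5-6, whose mm9 heptamer, nonamer and CTCF core have the same letters as those of Ighv5-2, went from 0.320% ± 0.234 to 3.30% ± 0.932 (3.55 log2 units). The segment at 114919648, closest to Ighv5-9 and 83.3 kb away, went from 0.007% ± 0.008 to 0.520% ± 0.093 (6.27 log2 units). As a result Ighv5-2 had 2.41 ± 0.866 times as many junctions as Ighv5-4 in untreated cells and 0.293 ± 0.055 times as many with IAA (n = 6 each). Against the segment at 114846142 the ratio was 1.60 ± 0.351 untreated and 1.43 ± 0.204 with IAA.

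**Figure D2:**
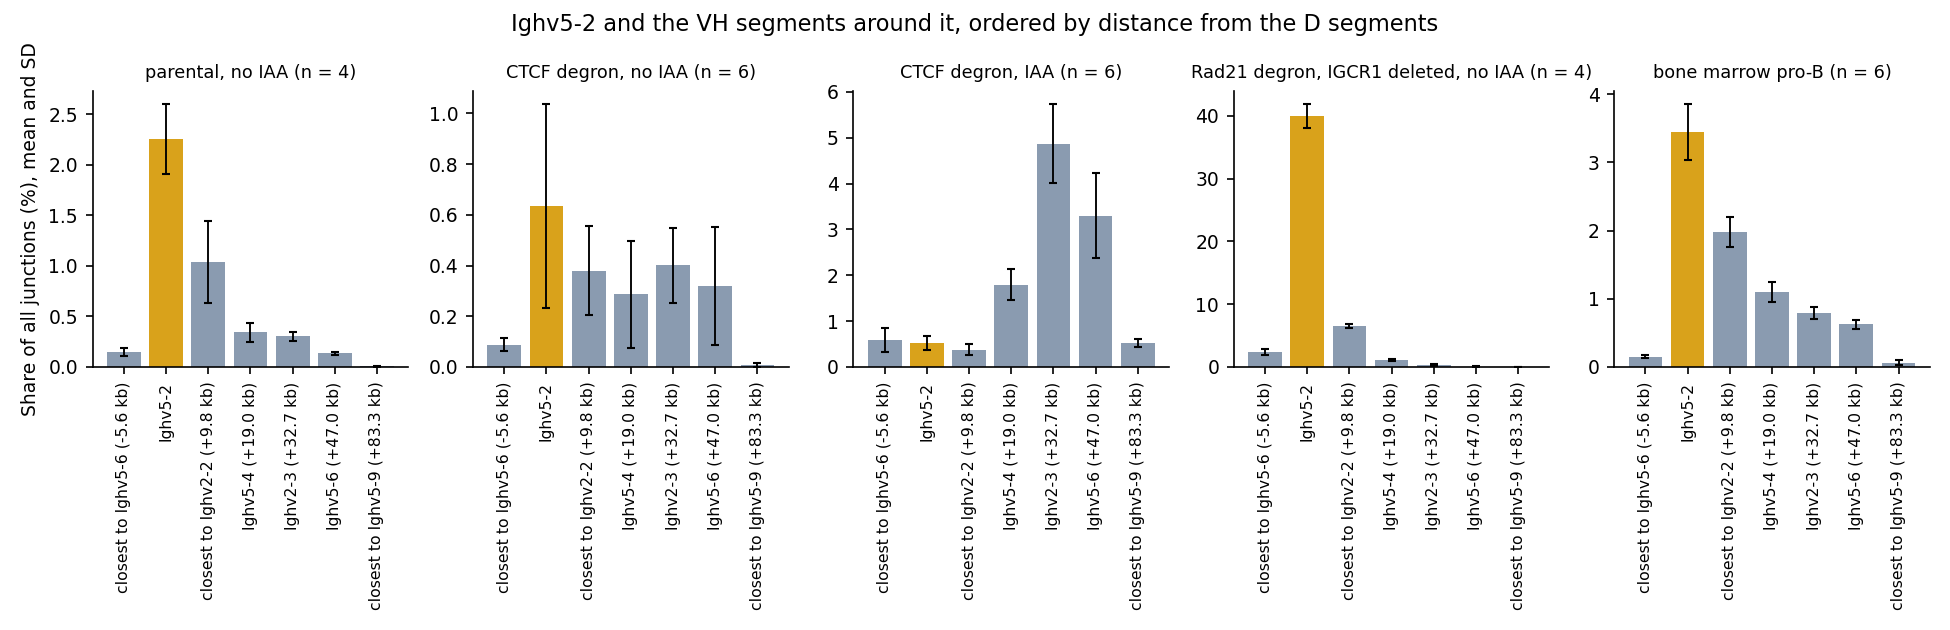
Mean share of all junctions (%, linear axes that differ in scale, bars with SD over replicates) of Ighv5-2 (gold) and the used VH segments around it (grey), placed from the D side on the left, with the distance from Ighv5-2 in kb. Ighv5-2 has the highest bar in the parental, IGCR1-deleted and bone marrow panels and in the untreated CTCF degron, while in the CTCF degron with IAA the bars of Ighv2-3 and Ighv5-6 are the highest.

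As a share of VH junctions, Ighv5-2 fell in the CTCF degron with IAA. The untreated values ran from 8.83% through a median of 15.3% to 21.9%, and the IAA values from 1.50% through 1.85% to 2.38%, without overlap. The change was −2.94 log2 units (SE 0.225, adjusted p = 2.90e-09; 48.1% of the 54 VH segments called), the most negative of the 54. The segment at 114846142 fell by 2.77 log2 units within VH, while Ighv5-4 changed by 0.05 (SE 0.184, adjusted p = 0.849). All other VH junctions together went from 3.42% ± 1.04 to 27.0% ± 2.67 of all junctions, a 7.89-fold ratio. All 12 replicates came from the same sequencing run.

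In the lines without a complete degron, the change of Ighv5-2 with IAA did not pass unless samples were paired. In the parental line the change was −0.02 log2 units of all junctions (SE 0.163, adjusted p = 0.945; 29% of 31 segments called) and 0.08 within VH (SE 0.103, adjusted p = 0.628; 0% called, and none of the 14 at an unadjusted p under 0.05 in limma). In the OsTIR1 only line it was −0.37 of all junctions (SE 0.216, adjusted p = 0.254; 4.55% called) and 0.02 within VH (SE 0.101, adjusted p = 0.967; 0% called, and 1 of 8 unadjusted). In the CTCF tag only line it was −0.24 (SE 0.269, adjusted p = 0.999; 0% called, and 4 of 73 unadjusted) and −0.11 within VH (SE 0.224, adjusted p = 0.990; 0% called, and 1 of 55 unadjusted). In the latter pair of lines the replicate number was taken to pair samples, only because same-numbered samples correlated in these data. With that number as a block in limma, the OsTIR1 only change was −0.46 of all junctions (adjusted p = 0.0195). The CTCF tag only changes were −0.25 (adjusted p = 0.0134) and −0.14 within VH (adjusted p = 0.00422). All of these passed, but on pairs chosen from the same data. The share of segments called with the block is not given. In OsTIR1 only the pairs are less sure, since pair and sequencing run cannot be told apart. The sequencing runs of the OsTIR1 only line differed, with a log2 ratio of −0.03 in the run of replicates 1 and 2 and −0.72 in that of replicates 3 and 4. Parental replicates 1 and 2 shared no run between the states. In the run that held both parental states (n = 2 each), the log2 ratio was 0.12 of all junctions and 0.23 within VH. The VH shares there were 53.1% to 56.9% with IAA and 45.8% to 48.1% untreated, without overlap.

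Interaction terms set the CTCF degron against each control line. Within VH the IAA effect on Ighv5-2 differed in the CTCF degron from that in the parental line by −2.98 log2 units (SE 0.271, adjusted p = 5.05e-10; 19.6% of 46 segments called). The difference was −2.91 against OsTIR1 only (SE 0.291, adjusted p = 3.66e-09; 9.09% called) and −2.80 against CTCF tag only (SE 0.347, adjusted p = 1.62e-06; 8.62% called). These interactions share the CTCF degron samples. As a share of all junctions the same differences were −0.10, 0.32 and 0.14 and did not pass (adjusted p = 0.806, 0.490 and 0.787), where 69.4%, 66.1% and 68% of segments were called.

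**Figure D3:**
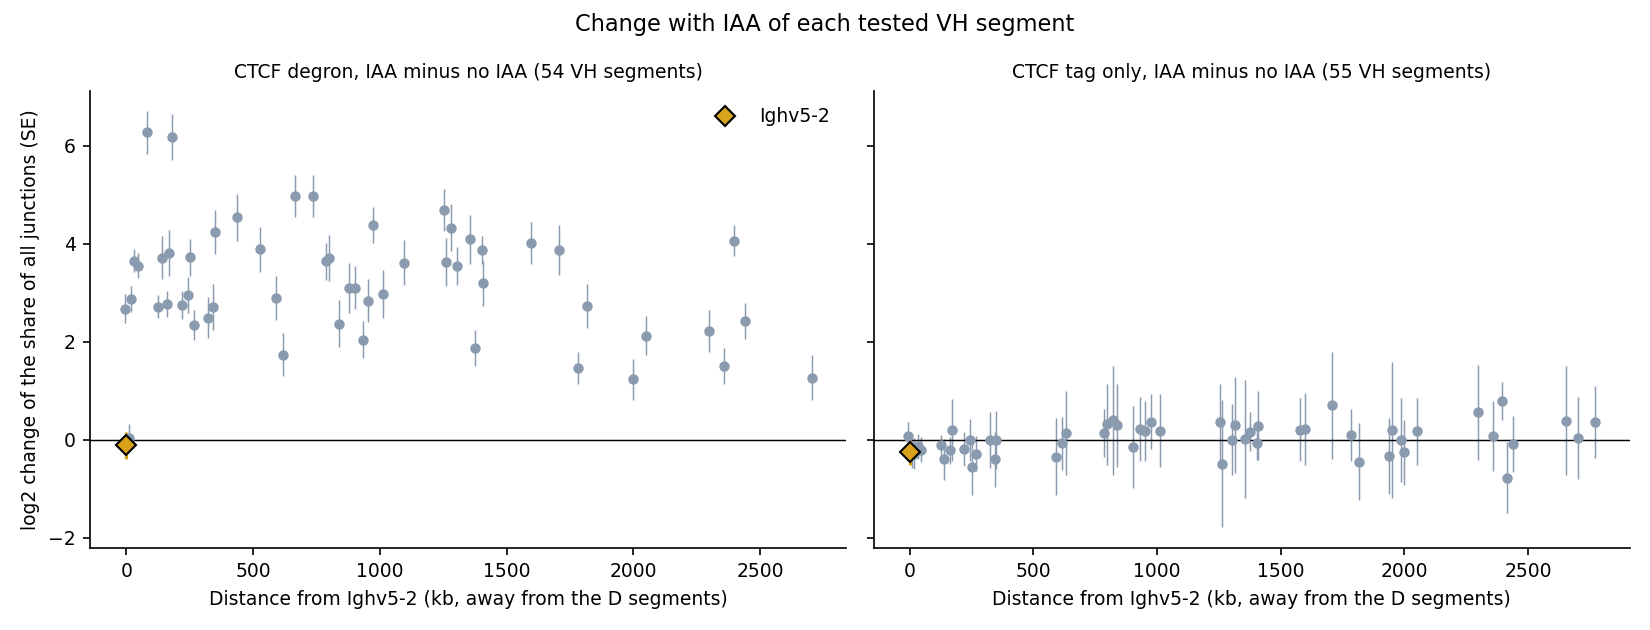
Change with IAA of the share of all junctions (log2, points with SE from limma) of each VH segment tested, against its distance from Ighv5-2 (kb, away from D), in the CTCF degron (left, 54 segments) and the CTCF tag only line (right, 55 segments). Ighv5-2 (gold diamond) and the neighbour next to it lie at 0 on the left, where the other segments lie above 0, and the points on the right lie on both sides of 0.

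The untreated lines and bone marrow were each set against the same untreated parental replicates, so these comparisons share their control. The parental values were 1.81%, 2.22%, 2.64% and 2.37% of all junctions and 52.4%, 51.6%, 48.1% and 45.8% of VH junctions. The untreated CTCF degron was lower on both scales, with a difference of −2.08 log2 units of all junctions (SE 0.254, adjusted p = 2.25e-13; 63.6% of 33 called) and −1.77 within VH (SE 0.254, adjusted p = 7.05e-06; 95% of 20 called). The other VH junctions were 3.42% of all junctions there and 2.35% in parental cells, with overlapping replicates. The untreated CTCF tag only line, which has no OsTIR1, was also lower. Its values were 1.50%, 0.706%, 0.939% and 0.976% of all junctions, all under the lowest parental value, with a limma change of −1.25 (SE 0.208, adjusted p = 0.00104; 52% of 50 called) and −0.87 within VH (SE 0.199, adjusted p = 0.00266; 72.7% of 33 called). Within the one sequencing run that held both groups, the log2 ratio of means was −0.97 of all and −0.91 of VH junctions (n = 4 against 2). This comparison was added after the values were seen. The untreated Rad21 degron differed by −1.49 log2 units of all junctions (SE 0.161, adjusted p = 1.50e-05; 76% of 25 called), but its share within VH differed by −0.10 (SE 0.115), which did not pass (adjusted p = 0.438; 50% of 10 called). No run held both parental cells and either degron line, so run and line cannot be told apart there.

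Bone marrow pro-B cells had Ighv5-2 shares from 2.73% through a median of 3.50% to 3.92% of all junctions, above all parental replicates, and from 9.44% through 11.2% to 14.6% of VH junctions, below all of them. In limma the differences were 0.52 log2 units of all junctions (SE 0.113, adjusted p = 5.53e-05; 98.6% of 141 called) and −2.11 within VH (SE 0.109, adjusted p = 2.46e-14; 92.6% of 122 called). The direction on the scale of all junctions turned when identical junctions were counted once, to −0.86 (adjusted p = 0.00221), and on a median-of-ratios scale, to −1.58. The 121 other VH segments tested were a median of 5.66 log2 units higher in bone marrow, and 1 of them had a lower value than Ighv5-2. Bone marrow and parental replicates shared no sequencing run, so primary against transformed cells and run cannot be told apart in this comparison.

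Set against bone marrow, the CTCF degron with IAA had a like share of other VH junctions, 27.0% ± 2.67 against 27.4% ± 5.76 of all junctions, but a lower Ighv5-2 share in each replicate. The difference was −2.75 log2 units of all junctions (SE 0.190, adjusted p = 1.42e-15; 85% of 140 called) and −2.59 within VH (SE 0.163, adjusted p = 2.98e-13; 88.4% of 121 called). The median of the 120 other VH segments was −1.67 of all junctions, and 91 of them had a higher log2 value than Ighv5-2. No sequencing run held both groups, so run, primary against transformed cells and the state of CTCF cannot be told apart here.

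Across the 13 group means, the segments whose pattern was most like that of Ighv5-2 were its neighbours. Pearson's r of log2(share + 0.01) was 0.96 with the segment at 114846142 and 0.85 with the segment at 114830805, then 0.58 with Ighd5-7, a D segment 137 kb away, out of 86 segments ranked. The points share libraries and a common total, so r is a description.

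The joins themselves were read next. Of the 81817 Ighv5-2 reads in the deletional orientation (plus), 99.6% ended within 30 bases of the segment's end and 89.9% had a readable frame. The following joins, among the most frequent of their group, show the parts of such a read. Each runs 5′ to 3′ on the coding strand from the conserved cysteine codon (tgt) of Ighv5-2 to the tryptophan codon (tgg) of JH4, and capitals mark a run of 8 or more bases shared with a D segment. All were rare, and each came from 1 replicate. Of the reads with a readable frame, the CTCF degron joins had 4 and 3 of 837, and the bone marrow joins 27 and 26 of 11327. The most read joins of untreated parental cells and of the untreated deletion line, not printed, had no such run.
Ighv5-2 to JH4, CTCF degron with IAA, Ighd4-1: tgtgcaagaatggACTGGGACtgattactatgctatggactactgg
Ighv5-2 to JH4, CTCF degron with IAA, Ighd1-1: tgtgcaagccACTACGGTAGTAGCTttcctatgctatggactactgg
Ighv5-2 to JH4, bone marrow, Ighd2 family: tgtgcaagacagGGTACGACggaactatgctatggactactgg
Ighv5-2 to JH4, bone marrow, Ighd2 family: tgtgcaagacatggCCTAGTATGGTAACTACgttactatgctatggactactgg

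The first of these lost 2 bases from the Ighv5-2 end and the second 3, while both bone marrow joins kept the end whole. The first 3 were out of frame, and the last was in frame but held a stop codon (taa) inside its D. The D sequences behind these runs are the following, and they differ in length, which matters because the files hold no read with more than 30 bases between bait and prey.
Ighd1-1: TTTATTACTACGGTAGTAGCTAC
Ighd4-1: CTAACTGGGAC
Ighd2 family, at 114705399, in the first bone marrow join: CCTACTATAGGTACGAC
Ighd2 family, at 114695747, in the last join: CCTAGTATGGTAACTAC

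Joins kept the Ighv5-2 end whole in 33.9% of reads in untreated parental cells and 41.6% in bone marrow, and between 29.8% and 36.6% in the other groups with 20 or more reads a replicate. The mean loss was 1.76 ± 0.071 bases in bone marrow (n = 6) and 2.44 ± 0.457 in untreated parental cells (n = 4). The values 1.70 to 1.89 lay below the parental values of 1.96, 2.15, 2.78 and 2.88 (exact two-sided permutation p = 0.0048, the smallest possible, adjusted p = 0.0476 over 20 tests on joins). The stretch between bait and prey was longer in bone marrow, with a median of 16.8 ± 0.983 bases against 13.75 ± 0.957 (exact permutation p = 0.0095, adjusted p = 0.0476). When a parental replicate was left out, the adjusted p of both rose past 0.05, as did that of the second without bone marrow replicate 1, 2, 3, 4 or 6. In the CTCF degron the mean loss was 2.43 ± 0.440 bases untreated and 2.44 ± 0.473 with IAA, and none of the 5 measures of joins passed with IAA, at adjusted p from 0.430 to 0.998 by exact permutation tests.

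The reading frame set the bone marrow joins of Ighv5-2 apart from those of other VH segments. Joins that are not selected for their protein product are known to fall about equally into the 3 frames. In the 6 bone marrow replicates 27.1%, 28.0%, 30.7%, 31.7%, 27.4% and 24.5% of Ighv5-2 joins were in frame, compared with 53.7%, 51.1%, 51.9%, 48.9%, 56.8% and 60.2% of the other VH joins with a readable frame in the same replicates. The sets did not overlap. On average 13615 of the 16794 other VH reads of a bone marrow replicate were plus reads with a readable frame. The mean difference was −25.5 percentage points, lower in 6 of 6 replicates (exact sign-flip p = 0.0312, the smallest possible; adjusted over 12 groups 0.375). In untreated parental cells the shares were 33.8% ± 1.02 for Ighv5-2 and 34.9% ± 3.15 for the others, and in the lines the mean difference was within 1.2 points of 0, except with IAA and IGCR1 deleted, where few other VH reads gave 44.4% ± 20.1. Bone marrow and parental cells thus differed by −24.4 points in this difference (exact permutation test, p = 0.0048, again the lowest value 6 against 4 can give), and by −24.3 with identical junctions counted once. These comparisons were added after the values were seen.

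Among the 57 VH segments with at least 20 framed reads in each bone marrow replicate, Ighv5-2 had the lowest in-frame share, 28.2% ± 2.63, where the median segment had 60.5% and the highest 73.9%. Its neighbours were also low, with 32.0% ± 19.9 at 114830805, 35.3% ± 6.27 at 114846142 and 36.4% ± 5.98 at Ighv5-4. In the CTCF degron with IAA the 24 segments with enough reads ran from 30.2% to 36.8%, and Ighv5-2 had 32.4% ± 4.07. The in-frame share of Ighv5-2 itself was lower in bone marrow than in untreated parental cells, with a difference of −5.54 points (exact permutation p = 0.0095, adjusted p = 0.0476), and leaving out any replicate of either group raised the adjusted p past 0.05. Of the in-frame Ighv5-2 joins, 64.3% were free of stop codons in bone marrow and 76.0% in untreated parental cells.

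**Figure D4:**
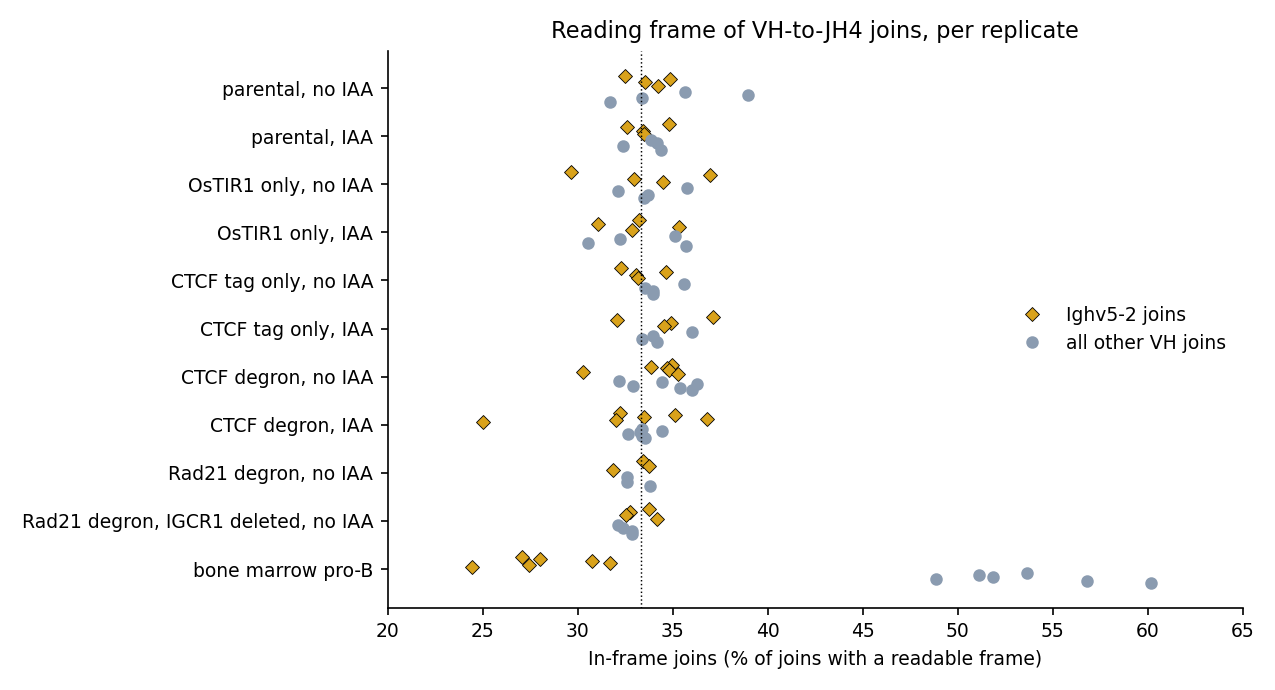
In-frame joins as a percentage of joins with a readable frame, for Ighv5-2 (gold diamonds) and for all other VH segments together (grey circles), 1 point a replicate, in groups with at least 20 Ighv5-2 reads and 100 other VH reads a replicate. The dotted line marks equal use of the 3 frames. Line groups lie around it for both kinds of join, and in bone marrow Ighv5-2 lies below it, from 24.5% to 31.7%, and the other VH joins above it, from 48.9% to 60.2%.

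In most groups the D inside Ighv5-2 joins was less often Ighd1-1, the D segment with the most junctions over all libraries pooled, which lies on the VH side of the Ighd2 family. Ighd1-1 did not lead everywhere: among D-to-JH4 joins Ighd4-1 had the larger share in all 3 IAA replicates of the IGCR1-intact Rad21 degron, 58.7% to 76.1% against 3.77% to 7.99%, and in all 4 of the deletion line, 66.8% ± 3.07 against 1.43% ± 0.341. It also led Ighd1-1 in untreated replicates 2, 3 and 4 of the deletion line. In untreated parental cells Ighd1-1 made up 21.5% ± 2.66 of the recognised D inside Ighv5-2 joins, 40.0% ± 1.49 inside other VH joins and 66.2% ± 0.168 of D-to-JH4 joins. The Ighd2 family, between Ighd1-1 and JH, made up 70.5% ± 3.87 of the D inside Ighv5-2 joins there and 27.0% ± 0.993 of D-to-JH4 joins. The share of Ighd1-1 was lower in Ighv5-2 joins than in D-to-JH4 joins in all 4 parental replicates, with differences of −48.0 to −42.0 points (exact sign-flip p = 0.125, the smallest that 4 allow). With 6 replicates, the untreated CTCF degron had 33.8% ± 9.05 in Ighv5-2 joins against 67.4% ± 7.42 in D-to-JH4 joins and 57.7% ± 11.9 in other VH joins, lower in 6 of 6 for each (exact p = 0.0312, the smallest possible, for both). Bone marrow had 13.4% ± 1.30 against 24.8% ± 1.48 and 29.3% ± 1.32, also lower in 6 of 6 (exact p = 0.0312 for both). Over the 12 groups compared with D-to-JH4 joins and the 11 compared with other VH joins these p-values cannot pass an adjustment. D calls need a run of at least 8 bases, and long D segments can be lost at the limit of 30 bases, which bears on all VH joins, while in D-to-JH4 joins the D is itself the prey.

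The CTCF degron with IAA was less far apart, with 30.8% ± 12.1 in Ighv5-2 joins, 39.9% ± 4.84 in other VH joins and 40.1% ± 6.65 in D-to-JH4 joins, lower in 5 of 6 replicates against each (exact p = 0.0938 and 0.0625). In untreated cells without IGCR1 the share was 7.86% ± 0.807 in Ighv5-2 joins and 7.87% ± 2.19 in other VH joins, against 22.9% ± 5.03 in D-to-JH4 joins. With IAA that line was the exception, with 3.42% ± 4.64 in Ighv5-2 joins, from 39 to 77 joins with a D a replicate, against 1.43% in D-to-JH4 joins. The difference was 1.99 points, lower in 2 of 4 replicates (exact sign-flip p = 0.75). Between the untreated states, Ighd1-1 inside Ighv5-2 joins was lower in the deletion line than the 21.9% ± 3.94 of the IGCR1-intact line. The difference was −14.1 points, with no overlap (exact permutation p = 0.0286, the smallest that 4 against 3 allow, adjusted p = 0.0816). This was not particular to Ighv5-2. The untreated IGCR1-intact line also had more Ighd1-1 in the other joins, 39.4% ± 3.81 inside other VH joins and 48.0% ± 2.75 of D-to-JH4 joins. Inside Ighv5-2 joins, bone marrow differed from untreated parental cells by −8.15 points (exact permutation p = 0.0048, adjusted p = 0.0476), and without any single parental replicate the adjusted p no longer passed. Read in reverse, the bases between bait and prey matched a D in 1.24% of joins, against 60.1% as read.

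**Figure D5:**
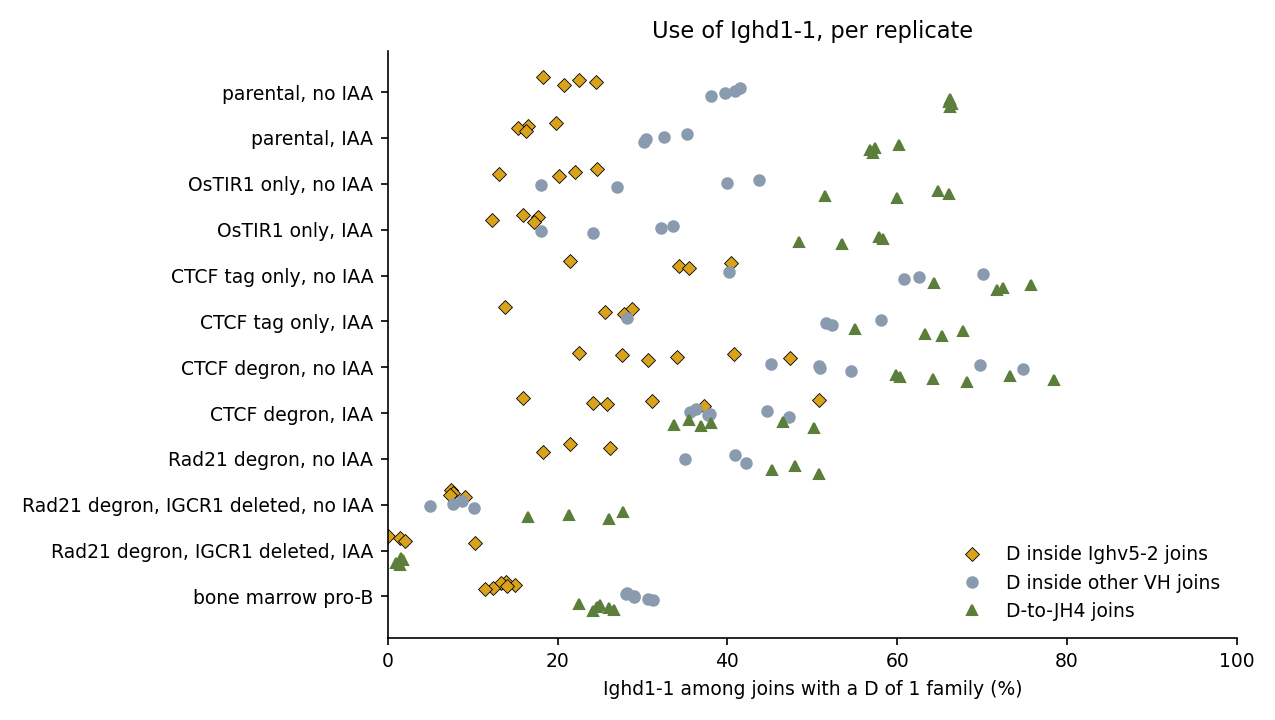
Ighd1-1 as a percentage of joins whose D was assigned to 1 family, 1 point a replicate, for the D inside Ighv5-2 joins (gold diamonds), the D inside other VH joins (grey circles) and D-to-JH4 joins (green triangles). Diamonds lie left of the triangles in every replicate of the parental, OsTIR1 only, CTCF tag only, untreated degron and bone marrow groups, and mix with the other points in the CTCF degron with IAA and in the IGCR1-deleted line with IAA.

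Reads in the other orientation (minus) at Ighv5-2 were few, 1046 of 82863, or 1.26%. Of these, 88.1% held the 20 bases from the last base of the heptamer into the spacer, so that they ran outward through the recombination signal. The heptamer began within the first 3 bases of the prey in 35.2% of the minus reads, and 791 reached the CTCF core printed above. Minus reads were 1.15% ± 0.375 of Ighv5-2 reads in untreated parental cells and 0.348% ± 0.284 in bone marrow (exact permutation p = 0.0048, adjusted p = 0.0190 over 4 tests). In untreated cells without IGCR1 they were 2.61% ± 0.807, against 1.03% ± 0.221 with IGCR1 (exact permutation p = 0.0286, adjusted p = 0.0571). The Rad21-depleted state of the deletion line had 1.52% ± 1.35 from 0 to 3 minus reads a replicate, and 2.42% ± 2.08 with identical junctions counted once. The CTCF degron had 1.07% ± 0.756 untreated and 0.870% ± 0.656 with IAA (exact permutation p = 0.645). Among all other VH reads, minus reads were also more frequent in untreated parental cells, at 1.28% ± 0.411, than in bone marrow, at 0.541% ± 0.094. In the untreated Rad21 degron lines they were 2.44% ± 0.552 of other VH reads without IGCR1 and 2.66% ± 1.72 with it. These shares of other VH reads were not tested.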

How the data were processed

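Junction reads were the deposited lines, 1 for each bait-to-prey junction, with other values such as positions, orientation and read sequence. Per the submitters' processing notes reads were aligned with Bowtie2 (version not given in the sources used here) to mm9, and per the labels to a hybrid of mm9 with a separate Igh sequence. Positions therefore differ from mm9, and mm9 sequences came from the reference given. Other steps the authors took are not given in the sources used here. Segments other than Ighv5-2 were named by the closest mm9 segment with blastn 2.17.0 (at least 80% identity over 100 bases), and the symbol Ighv5-2 came from RefSeq synonyms. The annotation calls the gene by another symbol (identifier ENSMUSG00000076633.2).

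Where a replicate had 2 libraries (a and b), they were summed. Tallies per segment (window 100 bp) as a share of all junctions, or of VH junctions, were tested with voom and lmFit in limma 3.58.1 (R 4.3.3, pseudocount 0.5), on segments with at least 10 junctions per replicate on average. P-values were adjusted by Benjamini-Hochberg over all segments of a comparison and passed under 0.05. The tally test was run on simulated data in which a minority of segments changed. That check does not cover comparisons in which most segments changed. Shares and join features were tested by exact two-sided permutation (scipy 1.17.1, Python 3.11.15), and share intervals were exact binomial or Poisson at 95%. Features needed 20 reads a replicate.

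Same-numbered samples were correlated over segments. Every pair exceeded 0.1 for OsTIR1 only (0.66 to 0.87) and CTCF tag only (0.49 to 0.84), so the numbers were taken as pairs there, from the data alone. The best match was the sample's own number in 4 of 4 for CTCF tag only but in 2 of 4 for OsTIR1 only. In OsTIR1 only, replicates 1 and 2 shared a run in both states and replicates 3 and 4 another, so pair and run cannot be told apart.

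The segments named were Ighv5-2, the nearest used VH segment on its D side and the 2 nearest on the other, the most used VH of each group, and the 3 with the most similar pattern. Ighv5-6 and the segment at 114919648 were added after their values were seen. The gene, the lists and the tests were chosen with earlier results of these data known. Off-target lists were not used here.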

Additional observations from a re-analysis of the deposited data

Results flagged for a closer look

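Single replicates were compared with the rest of their group in 88 sets of 4 or 6 samples by Dixon's ratio, and 6 lay apart, where chance gives about 1 in 20. In the untreated CTCF degron, replicate 1 had 1.43% of all junctions at Ighv5-2, against 0.351% to 0.662% in the others. In the CTCF tag only line with IAA, replicate 1 had 36.7% of VH junctions at Ighv5-2 (others 20.7% to 21.8%), and replicate 2 had 1.15% of its Ighv5-2 reads in the minus orientation (others 0.347% to 0.458%). In the parental line with IAA, a D was recognised in 65.7% of Ighv5-2 joins of replicate 1 (others 60.4% to 60.9%). In the untreated CTCF degron, replicate 5 had 30.3% in-frame joins (others 33.9% to 35.3%). In bone marrow, replicate 5 had a median of 15 bases between bait and prey (others 17 to 18).

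The effect of IAA on the share of Ighv5-2 within VH junctions differed between lines. In limma the difference of the CTCF degron was −2.98 log2 units from the parental line, −2.91 from OsTIR1 only and −2.80 from CTCF tag only. The difference in in-frame share between Ighv5-2 and other VH joins differed between bone marrow and untreated parental cells by −24.4 percentage points (exact permutation test, p = 0.0048, the smallest possible).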

How the results depend on the processing

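Of 791 alternative values over 52 results, 738 kept their direction and side of the threshold, 38 no longer passed, 12 newly passed and 3 reversed. The share of all junctions in bone marrow against parental cells, 0.52, reversed to −0.86 with identical junctions counted once and to −1.58 by median of ratios, and the interaction of CTCF degron with CTCF tag only on that scale reversed from 0.14 to −2.13. By median of ratios the CTCF degron change with IAA was −2.53 and its interaction with the parental line −1.06, and counted once the change was −0.71. The interaction of the 2 Rad21 lines was 1.45 counted once and 0.60 to 1.53 with a replicate left out, the highest value resting on counts of 0. With a replicate block (pairing by number), OsTIR1 only was −0.46 and CTCF tag only −0.25 of all and −0.14 of VH junctions. The block changed no other limma call on shares, and in the other comparisons not every same-numbered pair correlated above 0.1. The Rad21 change in percent, −0.818 points, could not pass by permutation. With a run of 10 bases for D, shares with a D newly passed at 5.27, −4.18 and 10.6 points (bone marrow, IGCR1 deletion, and IAA in the latter), as did Ighd1-1 at −17.9 points.

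For bone marrow against parental cells, the block took 4 features past 0.05, since 4 pairs cannot reach it: −0.66 bases lost, −4.40 points in frame, −7.40 points Ighd1-1 and 3.50 bases between bait and prey. Leaving out replicates gave −0.84 to −0.54, −6.24 to −4.79, −9.24 to −7.15 and 2.83 to 3.50, and for in-frame joins against other VH joins −27.2 to −23.5. The cause of these changes was not tested beyond the smaller number of samples. Depth limits Ighv5-2 most in the Rad21 degron with IAA, with 5566 junctions in all.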
